A study of Mus musculus with 8 samples.

Results

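This account describes ac4C peaks called over 5 chaperone genes of the mouse: Hsp90ab1 and Hsp90aa1, which encode the cytosolic HSP90 proteins, Hspa8, which encodes the constitutive cytosolic HSP70, and Hspa5 and Hsp90b1, which encode the HSP70 and HSP90 of the endoplasmic reticulum (ER). A peak was assigned to a gene if it overlapped, by 1 base or more and on the gene's strand, a span given in whole kb of the build mm39. The spans were chromosome 17 minus strand, 45878 to 45885 kb (Hsp90ab1), chromosome 12 minus strand, 110657 to 110663 kb (Hsp90aa1), chromosome 9 plus strand, 40712 to 40717 kb (Hspa8), chromosome 2 plus strand, 34661 to 34668 kb (Hspa5), and chromosome 10 minus strand, 86526 to 86542 kb (Hsp90b1). The spans held 42 of the 105252 peaks of the series, and these merged into 24 of its 75389 regions. All 5 genes held at least 1 peak. The genes were chosen from earlier results of the same lists, in which Hspa8 held one of the strongest regions shared by all lists and Hsp90ab1 held strong regions of the WT lists alone. Every value below is therefore a description and none is a test.

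The peaks came from acetylated RNA immunoprecipitation sequencing (acRIP-seq) of bone marrow derived monocytes, brought toward osteoclasts by RANKL for 3 days. One group was wild type (WT) and the other carried a conditional knockout (CKO) of Nat10, the enzyme that acetylates cytidine in RNA to N4-acetylcytidine (ac4C). The labels give neither the promoter that drives the deletion, nor strain, age or sex, nor whether the lists of a genotype came from separate mice. Each genotype had 2 peak lists, each an antibody-bound library called against its own input.

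HSP90 and HSP70 proteins are ATP-driven chaperones. HSP70 proteins bind short hydrophobic stretches of unfolded chains, and HSP90 dimers act later, on nearly folded clients such as kinases and steroid hormone receptors. In myeloid cells the ER form of HSP90 is known for folding Toll-like receptors and integrins. NAT10 also acetylates ribosomal and transfer RNA.

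The lists held 24249 to 28087 peaks. They give a position, a strand and a score of the authors for each peak, and no read totals, so the depth behind a peak is unknown. They hold no level of the mRNAs themselves, and in such bulk samples fewer cells of a type and less RNA per cell cannot be told apart. Loss of Nat10 and the markers of the cell type were not checked, because no gene annotation of mm39 was used here. An absent peak means that none was listed, not that the RNA lacked ac4C.

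Over the 5 genes together, 9 and 16 peaks were called in WT and 5 and 12 in CKO. The ranges of the genotypes overlapped. The means were 12.5 ± 4.95 in WT and 8.5 ± 4.95 in CKO (SD, n = 2 lists each), so the difference of 4.0 peaks was smaller than the SD within either genotype. It was 7.5 without WT list 1 or without CKO list 2, and 0.5 without WT list 2 or without CKO list 1. Within each replicate number the WT list held 4 peaks more than the CKO list. The lists numbered 2 held more of these peaks (16 and 12) than the lists numbered 1 (9 and 5), although they were the shorter lists overall. What samples of 1 number share is not stated in the labels, and its part in the result was not tested. Peaks covered 943 and 1781 bases of the spans in WT and 687 and 1018 bases in CKO. The mean was 1362 ± 593 bases in WT and 852.5 ± 234 bases in CKO (SD, n = 2 lists each), again with overlapping ranges. The difference of 509.5 bases was 90.5 without WT list 2, 344 without CKO list 1 and 928.5 without WT list 1.

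**Figure D1:**
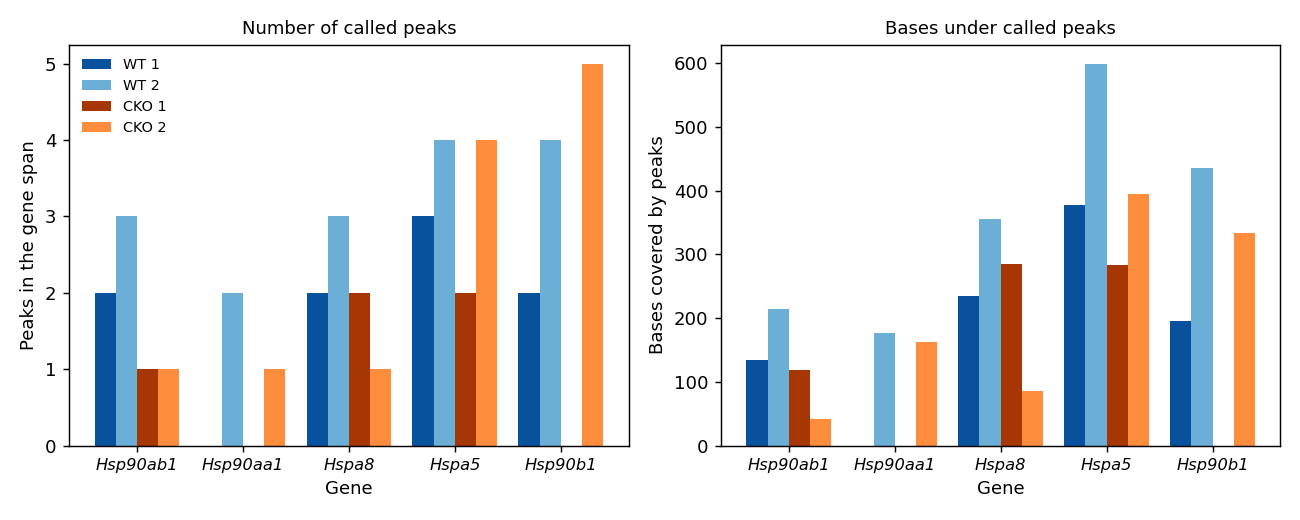
Number of called peaks (left) and bases under called peaks (right) in each chaperone gene, 1 bar per list and no error bars. Hsp90ab1 is the gene in which both WT lists (2 and 3 peaks) exceed both CKO lists (1 and 1), and CKO list 1 has no bar for Hsp90aa1 or Hsp90b1.

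Hsp90ab1 encodes the constitutive cytosolic HSP90. Its span held 2 and 3 peaks in WT and 1 in each CKO list. The genotypes did not overlap: the means were 2.5 ± 0.71 and 1.0 ± 0.0 peaks (SD, n = 2 lists each), a difference of 1.5. For comparison, peaks of any list were chained across gaps of up to 5000 bases, which gave 12944 loci with at least 3 peaks, the number in the sparsest of the 5 genes. Of these, 8.66% had more peaks in both WT lists than in either CKO list, and 8.22% had more in both CKO lists. Among the 5 chaperone loci, Hsp90ab1 alone fell in the first class and none fell in the second. Since Hsp90ab1 was picked with this contrast known, nothing is read from that share. The loci compared were also not matched to the 7 peaks of Hsp90ab1.

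The strongest Hsp90ab1 peaks lay at 45880166 to 45880313 of chromosome 17. WT list 1 called 72 bases there (45880166 to 45880237), which ranked 30 of its 28065 peaks by score. WT list 2 called 148 bases from the same base onward, which ranked 16 of 24851. Neither CKO list had a peak in this region. The nearest peak of CKO list 1, of 119 bases at 45879934 to 45880052, lay 113 bases away on the 3′ side and ranked 739 in its list. That of CKO list 2, of 42 bases at 45879155 to 45879196, lay 969 bases away on the same side and ranked 8929.

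A second Hsp90ab1 region, at 45881592 to 45881653, had identical borders in both WT lists and no peak in a CKO list. Its percentile was 99.29 in WT list 1 and 99.44 in WT list 2, where a percentile is the share of the list's peaks with the same or a lower score. The nearest CKO peaks were 1539 and 2395 bases away. Another position, 4 bases long at 45882691 to 45882694, was called in WT list 2 alone, at percentile 98.63. Thus no Hsp90ab1 position was called in both genotypes, while all 4 lists placed at least 1 peak in the gene.

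Hsp90aa1 encodes the stress-inducible cytosolic HSP90. Its span held 0 and 2 peaks in WT and 0 and 1 in CKO, so the ranges overlapped. Both lists numbered 1 lacked a peak here. WT list 2 called 84 bases at 110661055 to 110661138 of chromosome 12, which ranked 18 in that list, and 93 bases at 110657991 to 110658083, at percentile 73.86. CKO list 2 called 162 bases at 110661953 to 110662114, at percentile 47.84. Each of the 3 positions was called in 1 list only. The CKO list 2 peak lay 814 bases on the 5′ side of the strongest WT list 2 peak. Hsp90aa1 and Hsp90ab1 are closely related in sequence, and the labels do not say how reads that fit both genes were placed.

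**Figure D2:**
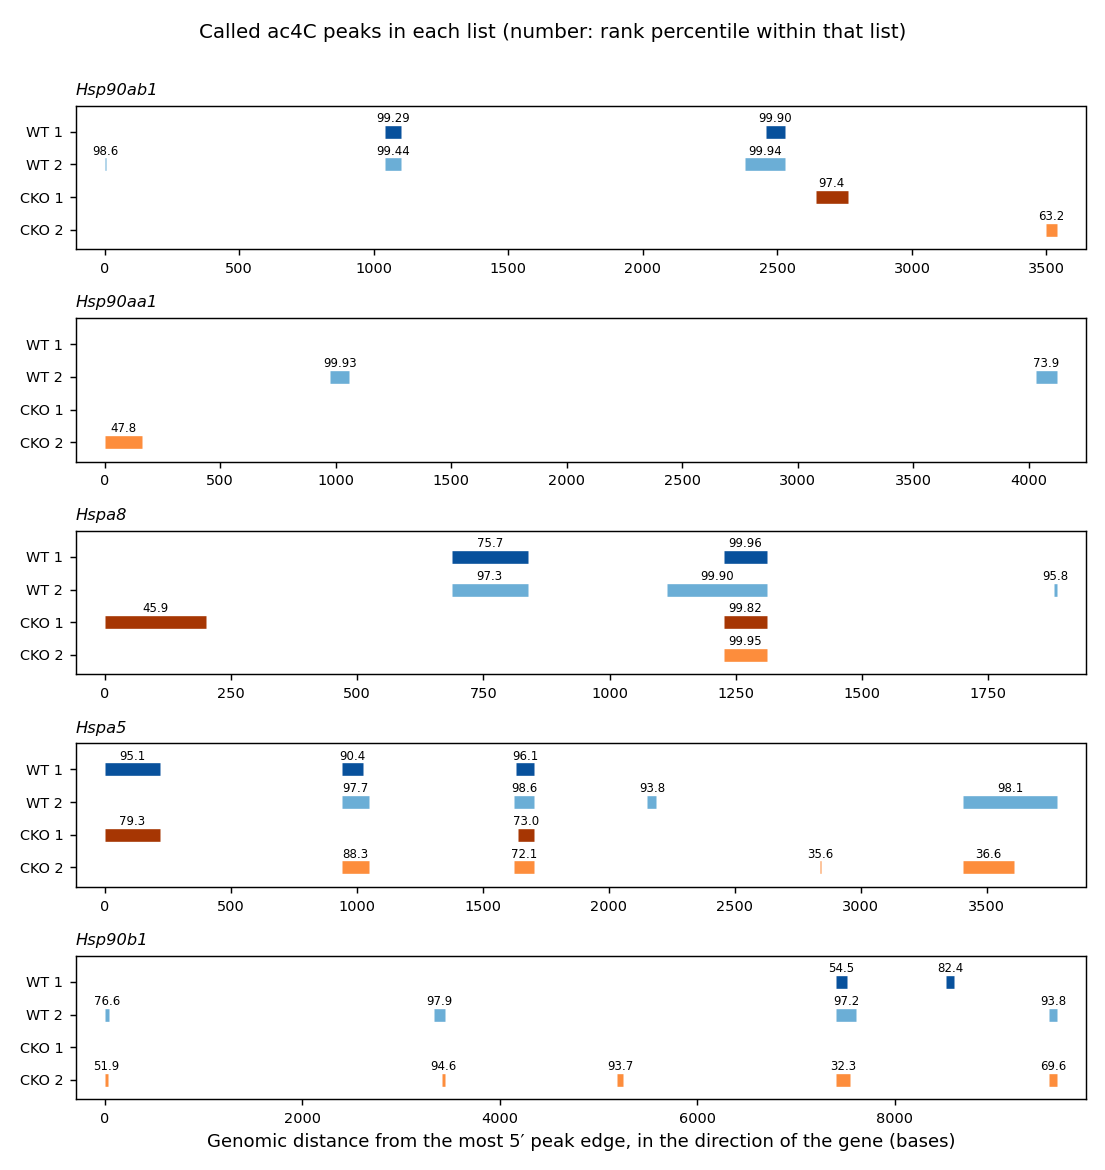
Called peaks of each list along the 5 genes, drawn to scale within a gene from the most 5′ peak edge (x axis, genomic bases, in the direction of the gene). The number over a peak is its rank percentile within its own list. A peak of Hspa8 and a peak of Hspa5 recur at the same place in all 4 lists, and the WT and CKO peaks of Hsp90ab1 stand at different positions.

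Hspa8 encodes the constitutive HSP70 of the cytosol, which also strips clathrin from coated vesicles. In its span 2 and 3 peaks were called in WT and 2 and 1 in CKO, so the ranges touched at 2. One region, at 40715461 to 40715659 of chromosome 9, carried a peak in every list. WT list 1, CKO list 1 and CKO list 2 called exactly the same 85 bases, 40715575 to 40715659, and WT list 2 called 199 bases that end at the same base. The peak ranked 11 and 25 in WT and 51 and 14 in CKO, near the top of all 4. A peak in both genotypes says only that each library passed the authors' threshold there.

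A neighbouring Hspa8 region, at 40715036 to 40715185, was called over the same 150 bases in both WT lists and in no CKO list. Its percentile was 75.69 in WT list 1 and 97.28 in WT list 2. Both CKO lists had their nearest peak 389 bases away, in the region that all lists shared. The remaining Hspa8 positions were called in 1 list each. CKO list 1 called 200 bases at 40714348 to 40714547, at percentile 45.91, and WT list 2 called 7 bases at 40716228 to 40716234, at percentile 95.83.

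Hspa5 encodes BiP, the HSP70 of the ER lumen which also binds the stress sensors of the unfolded protein response. Its span held 3 and 4 peaks in WT and 2 and 4 in CKO, with overlapping ranges. Of its 6 regions, 1 was held by all 4 lists, 1 by 3 lists, 2 by 2 lists and 2 by 1 list. The region of all lists, at 34663867 to 34663945 of chromosome 2, ended at the same base in each. Its peaks were 74 and 79 bases long in WT and 65 and 79 bases long in CKO. Their percentiles were 96.07 and 98.56 in WT and 72.96 and 72.08 in CKO.

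The Hspa5 region at 34663182 to 34663290 was called in both WT lists and in CKO list 2, from the same first base in each. Its percentiles were 90.43 and 97.69 in WT and 88.3 in CKO list 2. CKO list 1 had its nearest peak 590 bases away. At 34662241 to 34662458, both lists numbered 1 called the same 218 bases, at percentile 95.09 in WT and 79.33 in CKO. At 34665646 to 34666020, both lists numbered 2 had a peak, of 375 bases at percentile 98.14 in WT and of 202 bases at percentile 36.57 in CKO. WT list 2 alone called 36 bases at 34664395 to 34664430, at percentile 93.77, and CKO list 2 alone 5 bases at 34665078 to 34665082, at percentile 35.63. No Hspa5 region was held by both lists of a genotype and neither of the other.

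Hsp90b1 encodes GRP94, the HSP90 of the ER. Its span held 2 and 4 peaks in WT and 0 and 5 in CKO, the widest spread between lists of a genotype among the 5 genes (CKO mean 2.5 ± 3.54, SD, n = 2 lists). The nearest peak of CKO list 1 on this strand was 734562 bases from the gene's most 3′ region. CKO list 2, in contrast, marked 5 of the 6 Hsp90b1 regions.

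The region at 86530282 to 86530483 of chromosome 10 was the Hsp90b1 position that most lists shared, with peaks in both WT lists and in CKO list 2. The 3 peaks began at the same base on the 5′ side, 86530483, and were 108, 202 and 139 bases long. Their percentiles were 54.48 and 97.22 in WT and 32.34 in CKO list 2. WT list 2 and CKO list 2 alone shared 3 further regions, at 86528250 to 86528328, 86534448 to 86534559 and 86537851 to 86537892. In the first of these both lists called the same 79 bases, and in the second, at percentiles 97.94 and 94.63, lay the best Hsp90b1 peak of each. WT list 1 alone called 88 bases at 86529290 to 86529377, its best peak there at percentile 82.36, and CKO list 2 alone called 57 bases at 86532643 to 86532699, at percentile 93.65. No Hsp90b1 region was held by both lists of a genotype alone.

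Many of these peaks ranked high in their own lists. By definition about 10% of a list's peaks stand above percentile 90 and about 1% above percentile 99. Of the 42 chaperone peaks, 25 stood above percentile 90 and 9 above percentile 99. Those above 99 were 4 peaks of Hsp90ab1, 4 of Hspa8 and 1 of Hsp90aa1, all cytosolic chaperones, and the highest of the ER genes reached 98.56 (Hspa5) and 97.94 (Hsp90b1). The median percentile of the chaperone peaks was 95.1 in WT list 1 and 97.8 in WT list 2, against 79.3 in CKO list 1 and 66.4 in CKO list 2. Above percentile 90 stood 6 of 9 and 14 of 16 peaks of the WT lists and 2 of 5 and 3 of 12 of the CKO lists. The genotypes did not overlap in either measure, but how often other genes split this way was not computed. Hspa8 and Hsp90ab1 were chosen with their strong regions known, so nothing is read from this split or from the counts of high ranks. Percentiles place a peak within a list that was called by itself, and lists of unequal length and scale give no measure of change between them. The authors' scores had a median of 72.3 and 29.5 in WT and 71.3 and 116.5 in CKO, which is why scores are not set against each other here.

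**Figure D3:**
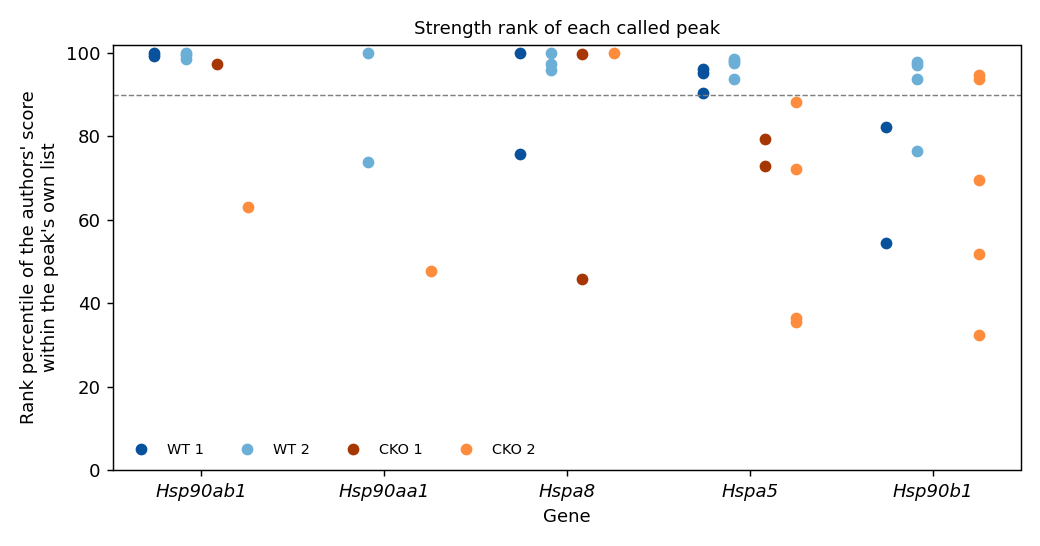
Rank percentile of the authors' score for each of the 42 chaperone peaks within its own list (y axis, 0 to 100), by gene and list, with percentile 90 as a dashed line. The Hspa8 peak shared by all lists sits above 99.8 in each. In Hspa5 the highest CKO peak is at 88.3 and the lowest WT peak at 90.43, close to the line on either side. The few peaks of Hsp90ab1 and Hsp90aa1 also split by genotype, while the WT and CKO peaks of Hspa8 and of Hsp90b1 overlap. Peaks of the same list are not separate samples, and how many other genes split this way was not computed. Nothing is therefore read from these splits.

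Of the 24 merged chaperone regions, 12 were held by 1 list (50%), against 69.1% of all regions. A further 8 (33.3%) were held by 2 lists, against 23.7% of all regions, and 2 (8.33%) by 3 lists, against 6.24%. The remaining 2 were held by all 4 lists, as were 0.964% of all regions. Held by both WT lists and neither CKO list were 3 chaperone regions, 2 in Hsp90ab1 and 1 in Hspa8, and this class made up 4.26% of all regions. With 1 list left out the class is wider for every region. Without WT list 1 it held 8 of 23 chaperone regions and 24.3% of all regions, and without WT list 2 it held 4 of 19 and 27.5%. Without CKO list 1 it held 3 of 22 and 7.37%, and without CKO list 2 it held 5 of 20 and 6.69%. The opposite class, both CKO lists and neither WT list, had 0 chaperone regions and 3.64% of all regions. When a single CKO list stands for its genotype, this class held 4 of 22 chaperone regions and 23.9% of all regions (without CKO list 1) or 2 of 20 and 27.2% (without CKO list 2). The other regions of exactly 2 lists were shared across genotypes. WT list 2 and CKO list 2 alone held 4 of them, all in the ER genes, a class with 3.53% of all regions. WT list 1 and CKO list 1 alone held 1, in Hspa5, a class with 4.24% of all regions. These counts come from the contrast with which the genes were chosen, so they support nothing about chaperones as a group.

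**Figure D4:**
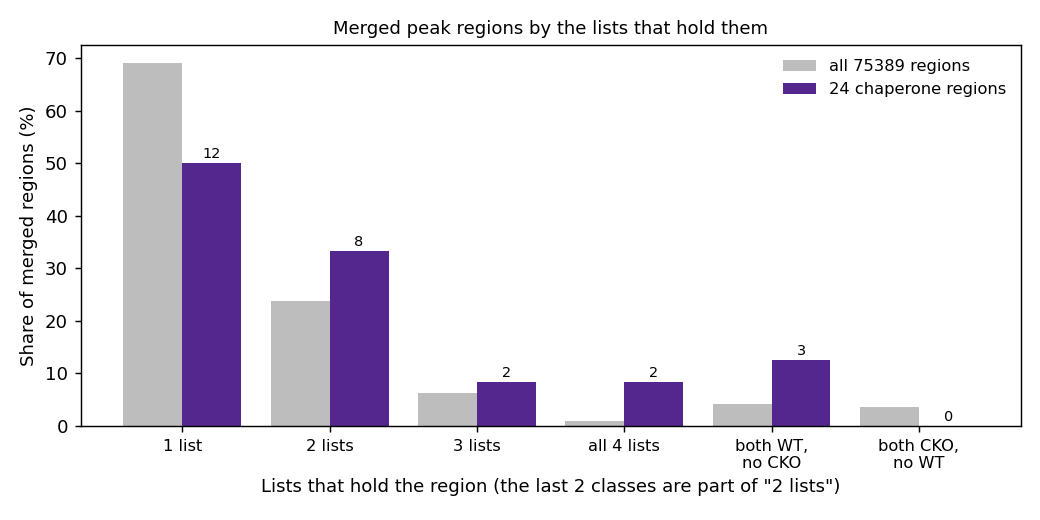
Share of merged regions (y axis, percent) by the lists that hold them, for all 75389 regions (grey) and the 24 chaperone regions (purple, with their number). The classes of both WT lists alone (3 chaperone regions) and both CKO lists alone (0) are part of the class of 2 lists.

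Where lists shared a chaperone region, they often shared its borders to the base. Of the 30 chaperone peaks in regions of at least 2 lists, 28 (93.3%) had a border at exactly the base used by another list, and for 15 (50%) this held at both ends. Over all 53137 such peaks of the series the shares were 72.4% and 12.6%. Hspa8 and Hsp90ab1 were chosen with their strong regions known, and a shared border counts once for each list. Nothing is read from these shares. In Hspa8 and in Hspa5 all 4 lists ended a peak at the same base, 40715659 and 34663945. Whether these bases are exon borders was not determined. Chaperone peaks had a median length of 85 bases (range 4 to 375), against 114 bases over the series. No list held a peak on the opposite strand of any of the 5 spans. The nearest same-strand peak outside a span was 11417 bases away for Hsp90ab1 and farther for the other genes, so the kb borders of the spans divided no cluster of peaks.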

How the data were processed

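Per the submitters' processing notes the tools were MACS2 2.2.7.1, STAR 2.7.8a and fastp 0.20.1, and the build was mm39. Per the labels the deposited peaks are those enriched in IP over input. Peak names show 1 call set per library. The score in the deposited lists was set by the authors. Neither its MACS2 quantity nor the way peaks were limited to mRNA and assigned a strand is given in the labels. The score was used to rank peaks within a list only. Lists were tied to samples by the library code in their peak names. Starts were read as counting from 0 and are printed counting from 1.

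The 5 genes and all measures were chosen with earlier results of these data known. Every chaperone gene, every region shared by all lists or by both lists of a single genotype, and each list's best peak are named. Peaks sharing at least 1 base on a strand were merged into regions, a step tested on made-up lists with known answers. No p-value was computed; with 2 lists against 2 an exact two-sided permutation test could not go below 0.333. Alternatives were stricter lists, other merging, wider spans, each list left out and a replicate block. The planned list of other chaperone genes and the cell type markers were not run, and no peak sequence is shown, because no mm39 annotation or genome was used. RefSeq names (GRCm38.p6 table) matched all 5 genes on the stated chromosomes. Python 3.11.15, numpy 2.4.6, pandas 2.3.3 and matplotlib 3.10.9 were used.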

Additional observations from a re-analysis of the deposited data

How the results depend on the processing

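With spans widened by 1 kb no count or difference changed. Counting rows of the same peak name once could change nothing, since the lists hold 0 repeated names. Merging across 100 bases, or asking that 50% of the shortest peak be covered, left the same 3 regions in both WT lists alone (2 in Hsp90ab1, 1 in Hspa8), 0 in both CKO lists alone and 2 in all lists. In the top 50% of each list 37 of the 42 peaks remained, the peak difference was 6.5, the base difference 863.5, and the class of both WT lists alone also took in the Hsp90b1 region at 86530282, whose CKO list 2 peak was dropped. Only 6 peaks had 200 bases or more. With these alone the base difference was 87.5 and the peak difference 0 (-0.5 in Hspa8, 0.5 in Hsp90b1). The Hsp90ab1 difference of 1.5 became 0, since its longest peak had 148 bases. At this length both WT lists alone, like all lists together, held 0 regions. Leaving out 1 list gave 3 to 8 regions of the WT lists alone, 0 to 4 of the CKO lists alone and 2 to 4 held by every remaining list. Taken within replicate numbers (replicate block), the peak difference was again 4 and the base difference 509.5; the corresponding region counts were 7, 3 and 5.5 on average, because 1 list then stands for each genotype. Leaving out WT list 2 turned the peak difference of Hsp90aa1 and of Hsp90b1 to -0.5, and leaving out CKO list 1 turned that of Hspa5 to -0.5 and that of Hsp90b1 to -2. The peak difference of Hsp90ab1 was 2 without WT list 1 and 1 without WT list 2. It stayed at 1.5 without CKO list 1 or without CKO list 2. The unknown read depth limits all counts, since an absent peak cannot be told from a thinly covered one.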

Other observations

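Some chaperone peaks were only a few bases long yet ranked high. The 4-base Hsp90ab1 peak of WT list 2 ranked 342 of 24851, and the 7-base Hspa8 peak of the same list ranked 1038. The 5-base Hspa5 peak of CKO list 2 stood lower, ranking 15611 of 24249. Peaks under 50 bases made up 8 of the 42 chaperone peaks (19%) and 22.4% of all peaks of the series. The labels do not say whether such a score belonged to a longer stretch before trimming.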
